A study of Mus musculus with 2 samples.

Results

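The histone genes described here were the 51 genes, of 27422 on the array, whose array name begins with Hist1h, Hist2h, Hist3h, Hist4h, H2af, H3f3 or H1f. The rule that picks them uses names and no measured value, and they were read by 71 of the 41164 probes with a value on both arrays. Of these genes, 37 were cluster histones (Hist1 to Hist4) and 14 were variant histones (H2af, H3f3 and H1f). Each gene is represented by its brightest probe, and array names are used throughout, although RefSeq has since renamed 42 of the 45 genes whose probe matched a RefSeq symbol.

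Histones H2A, H2B, H3 and H4 form the core around which DNA is wound, and H1 binds the linker between such cores. Cluster histone genes lie side by side in the genome in many near-identical copies, and dividing cells switch them on together in S phase, when new DNA must be packed. Most of their transcripts carry no poly(A) tail and end in a conserved stem-loop bound by Slbp. Variant histone genes mostly stand alone and are mostly transcribed throughout the cell cycle into polyadenylated transcripts. They supply proteins such as H2A.Z or H3.3 that are placed at chosen sites.

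The study compared RNA of 2 mouse melanoma lines, B16F1-GFP-M and B16F1-GFP-D, which both carry a GFP transgene. B16F1-GFP-M is the maternal line, and B16F1-GFP-D is derived from a dormant disseminated melanoma cell (DMC). In the paper, dormant refers to that founding cell, which persisted in the mouse without clinical signs. The derived population is described there as reactivated. B16F1-GFP-D grew from 1 colony of GFP-positive cells sorted out of organs pooled from tumour-free control and immunised mice. It is therefore a single clone. Both lines were grown in DMEM with serum and received no treatment. Their RNAs were hybridised together to 2 Agilent arrays with exchanged dyes. B16F1-GFP-D was labelled with Cy3 on array 1 and with Cy5 on array 2. The labels name no separate cultures, so there is 1 replicate per line. The lines were therefore not tested against each other, and the spread given below is that between the 2 arrays.

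On these arrays, 44.1% to 60.7% of the spots of a line were well above background and no spot was saturated, with a median signal 1.66 to 2.60 times that of the local background. A gene was taken as detected when its probe was well above background on both arrays in at least 1 line, which 12424 genes were. All 7 melanocyte markers examined were detected, at log2 ratios of B16F1-GFP-D relative to B16F1-GFP-M from -0.92 to 0.30. Of the markers of other cell types, 2 of 6 for fibroblasts (Col1a1 and Col1a2), 2 of 6 for leukocytes (Cd3e and Lyz2), 0 of 4 for endothelium and 0 of 4 for epithelium were detected, and Ptprc, which all leukocytes carry, was not.

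Since the copies of a family share long stretches of letters, the probes show which genes can be told apart. The 50 bases in capitals are shared by a pair of H4 probes.
Hist1h4d probe, chr13:23673665-23673724 (mm9, plus strand): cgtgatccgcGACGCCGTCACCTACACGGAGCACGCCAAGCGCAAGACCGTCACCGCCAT
Hist1h4f probe, chr13:23643249-23643308 (mm9, minus strand): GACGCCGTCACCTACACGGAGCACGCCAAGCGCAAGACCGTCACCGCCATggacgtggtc

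The H2B probes below are shown for the same reason. Capitals mark the longest run that each shares with the Hist1h2bm probe, of 52 bases for Hist1h2bk and 26 bases for Hist3h2bb-ps.
Hist1h2bm probe, chr13:21814139-21814198 (mm9, plus strand): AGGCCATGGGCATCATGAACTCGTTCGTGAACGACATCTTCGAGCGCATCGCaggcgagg
Hist1h2bk probe, chr13:22127928-22127987 (mm9, plus strand): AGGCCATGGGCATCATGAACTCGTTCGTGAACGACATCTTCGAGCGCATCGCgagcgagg
Hist3h2bb-ps probe, chr11:58767697-58767756 (mm9, minus strand): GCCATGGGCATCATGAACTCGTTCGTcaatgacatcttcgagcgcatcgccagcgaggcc

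The H2A genes with the largest ratios were read by a pair of probes that share 26 bases, in capitals, and differ on both sides of them.
Hist1h2ak probe, chr13:21845637-21845696 (mm9, minus strand): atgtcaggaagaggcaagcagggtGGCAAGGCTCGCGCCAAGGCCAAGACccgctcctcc
Hist1h2ai probe, chr13:21879028-21879087 (mm9, minus strand): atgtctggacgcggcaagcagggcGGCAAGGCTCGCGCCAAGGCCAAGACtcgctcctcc

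Probes that reach the stem-loop read the end of the replication-dependent transcript itself. The Hist1h3a probe holds a single perfect hairpin with a stem of 6 and a loop of 4 bases, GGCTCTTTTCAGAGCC. These letters, or their first 11 or last 12, occurred in 3 member probes, of which 30 bases are shown with those letters in capitals.
Hist1h3a probe, whole stem-loop, within chr13:23853756-23853815 (mm9, minus strand): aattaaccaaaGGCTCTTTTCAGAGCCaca
Hist1h2ab probe, first part, within chr13:23843392-23843451 (mm9, plus strand): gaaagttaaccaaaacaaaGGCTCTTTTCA
Hist1h2ae probe, last part, within chr13:23662489-23662548 (mm9, minus strand): CTTTTCAGAGCCattcacttaattcagtaa

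In all, 15 pairs of probes of different histone genes shared a run of 20 or more bases. A value given below for one cluster gene can therefore hold signal from its near copies. Probes listing a single RefSeq gene in the array's annotation are named as such where this matters.

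Of the 51 histone genes, 37 were detected, 28 of the cluster and 9 of the variant genes. Of the detected genes, 36 were above background in both lines, while Hist1h3a was so in B16F1-GFP-D but in B16F1-GFP-M on array 1 only. The 9 cluster genes that were not detected were Hist1h1a, Hist1h1b, Hist1h2ac, Hist1h2ae, Hist1h2al, Hist1h2be, Hist1h2bp, Hist1h2bq and Hist3h2ba. The 5 variant genes that were not detected were H1fnt, H1foo, H2afb1, H2afy2 and H2afy3. At these signals their levels were not detectable, and the linker histones H1fnt and H1foo are known from germ cells.

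Histone transcripts were for the most part slightly higher in B16F1-GFP-D, by less than 2-fold, and a few were clearly lower. The ratio of B16F1-GFP-D relative to B16F1-GFP-M was above 1 on both arrays for 25 of the 37 detected genes (67.6%), against 41.0% of all detected genes. It was below 1 on both arrays for 6 (16.2%), against 42.7% of all detected genes, and 6 genes changed sign between the arrays. The median log2 ratio of the 37 genes was 0.30 on each array, and the 12424 detected genes together had medians of -0.033 and 0.015. The standard deviation between the arrays, pooled over the detected histone genes, was 0.17, so that many of the single ratios lay within about the spread between arrays.

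**Figure D1:**
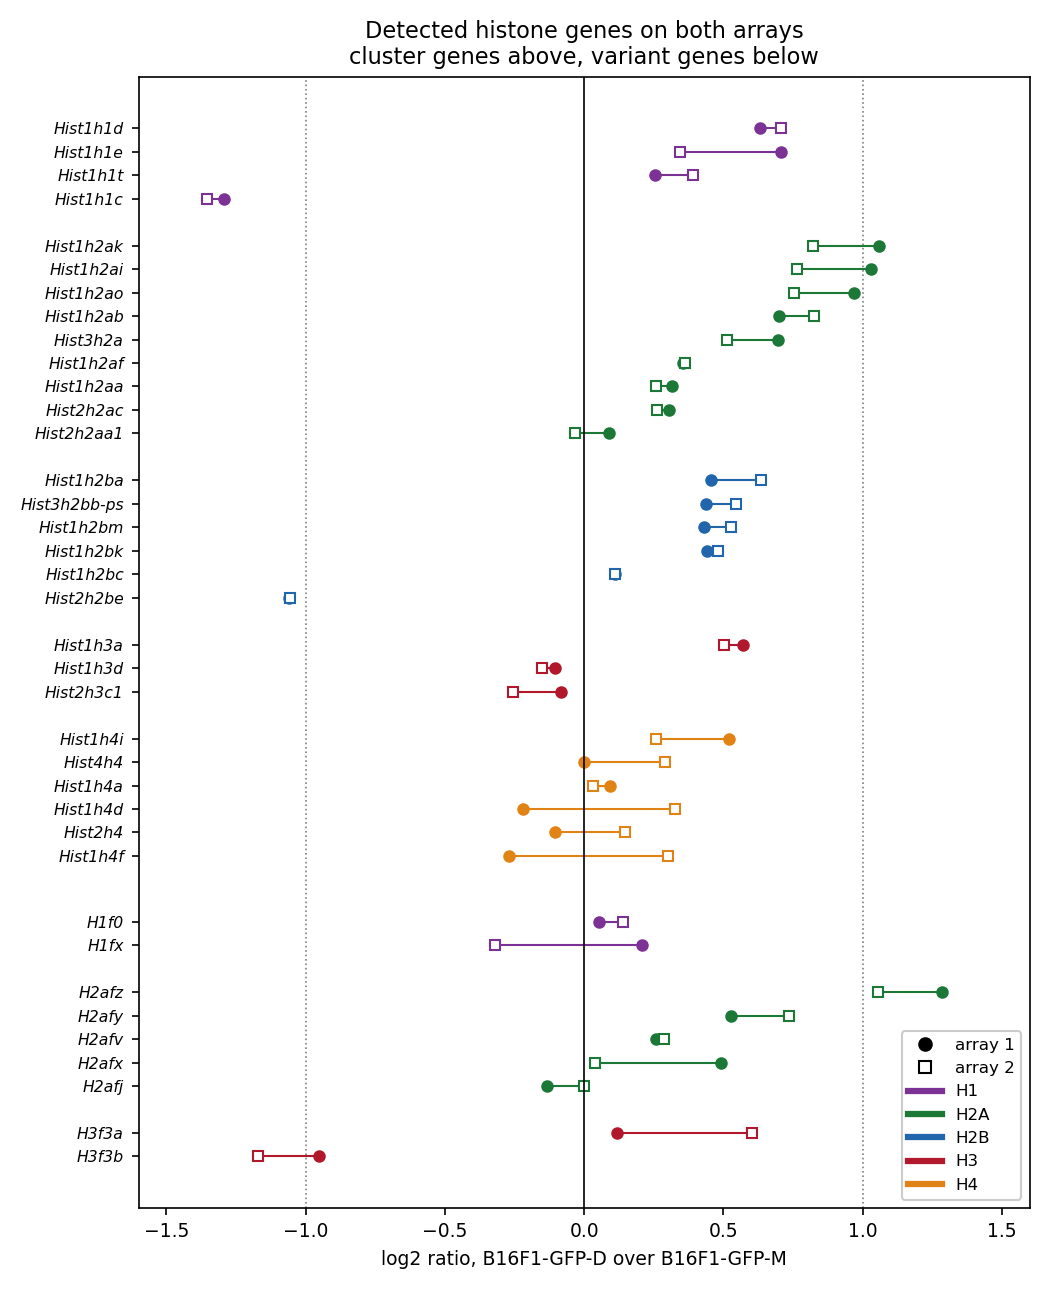
The log2 ratio of B16F1-GFP-D relative to B16F1-GFP-M (horizontal axis) is plotted for each of the 37 detected histone genes, with filled circles for array 1, open squares for array 2 and a colour for each family. Dotted lines mark 2-fold. H2afz lies beyond the upper line and Hist1h1c and Hist2h2be beyond the lower line on both arrays, and H3f3b does so on array 2.

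A gene was called when both arrays put it 2-fold or more apart between the lines, in 1 direction. By this rule of size 3 of the 37 histone genes were called, against 5.06% of all detected genes. They were 1 gene higher in B16F1-GFP-D (H2afz, against 3.11% of all genes) and 2 lower (Hist1h1c and Hist2h2be, against 1.95%). These are 2.7% and 5.41% of the detected histone genes, resting on 1 and 2 genes, and nothing more is read from them.

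H2afz encodes H2A.Z, the variant placed beside transcription start sites. Its probe, at chr3:137529371-137529430 (mm9), gave a log2 intensity of 14.98 in B16F1-GFP-D and 13.69 in B16F1-GFP-M on array 1. On array 2 it gave 14.78 and 13.72. As a called gene it was picked for a large ratio on each array, so the gap between these values is no further support. The log2 ratio was 1.28 on array 1 and 1.06 on array 2, with a mean of 1.17 ± 0.16 (SD between 2 arrays, 1 replicate), or 2.25-fold. The probe also lists an uncurated RefSeq transcript, and a dimmer probe with the same array name, placed on chromosome 6, was not detected.

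Hist1h1c encodes the linker histone H1.2, a cluster gene known for transcripts that can also be polyadenylated in cells that do not divide. Its probe, at chr13:23832018-23832077 (mm9), gave a log2 intensity of 10.09 in B16F1-GFP-D and 11.39 in B16F1-GFP-M on array 1. On array 2 it gave 10.14 and 11.49. The log2 ratio was -1.29 on array 1 and -1.35 on array 2. The mean of -1.32 ± 0.04 (SD between 2 arrays) amounts to a 2.50-fold lower level in B16F1-GFP-D. A second probe, annotated only by the cDNA name BC013561, lies 60 bases further along the same strand, at chr13:23832138-23832201. It gave -1.34 on array 1 and -1.29 on array 2. Neighbouring letters under different names thus gave nearly the same ratio.

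Hist2h2be is a cluster H2B gene of chromosome 3 for which polyadenylated transcripts are also known. Its probe, at chr3:96027381-96027440 (mm9), gave 8.33 in B16F1-GFP-D and 9.39 in B16F1-GFP-M on array 1. The values on array 2 were 8.25 and 9.31. The log2 ratio was -1.06 on each array, a mean of -1.06 ± 0.0010 (SD between 2 arrays), or 2.08-fold lower in B16F1-GFP-D. This probe lists a single RefSeq gene.

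**Figure D2:**
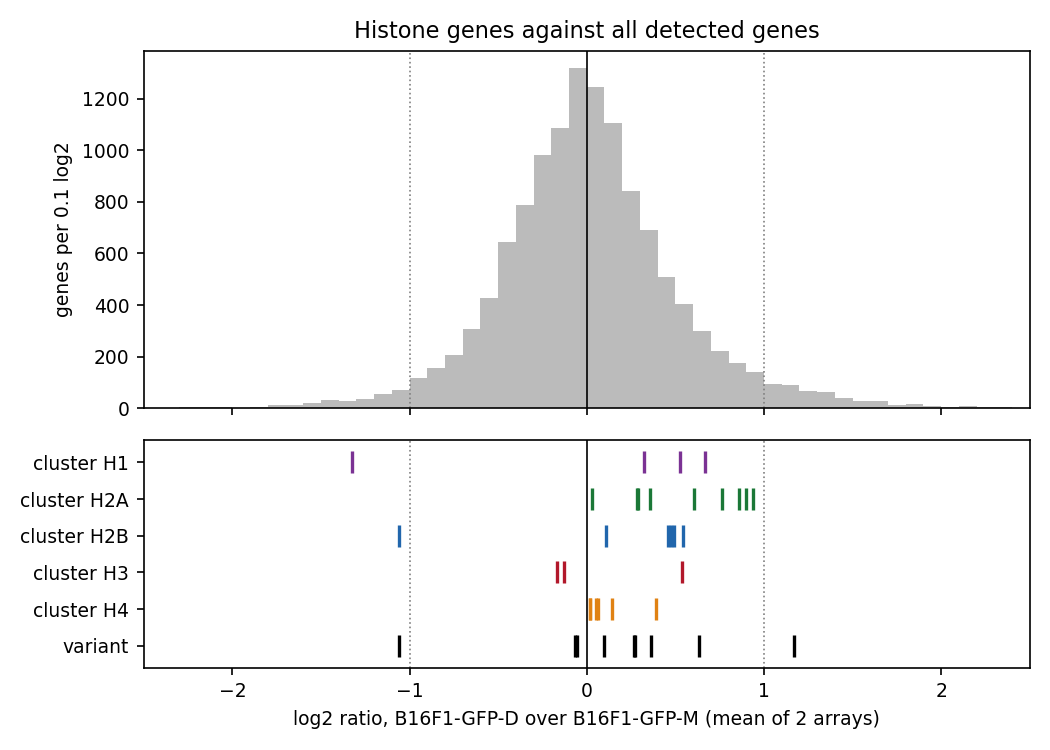
The upper panel counts all 12424 detected genes in steps of 0.1 of the log2 ratio of B16F1-GFP-D relative to B16F1-GFP-M, mean of 2 arrays (18 genes beyond 2.5 in size are not shown). The lower panel places each detected histone gene as a tick on the same axis, with a row for each cluster family and 1 for the variants. Most ticks lie to the right of 0 but inside the dotted 2-fold lines.

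The medians of the cluster and of the variant genes were both above 0. The 28 detected cluster genes had a median log2 ratio of 0.34 on array 1 and 0.33 on array 2, with 19 higher and 4 lower in B16F1-GFP-D on both of the arrays, and a range from -1.32 to 0.94. The 9 detected variant genes had a median of 0.21 on array 1 and 0.14 on array 2, with 6 higher and 2 lower on both arrays and a range from -1.06 to 1.17. The medians of the gene means were 0.34 and 0.26. The difference between the classes was not tested.

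Among the linker histones of the cluster, on both arrays 3 of the 4 detected genes were higher in B16F1-GFP-D, and Hist1h1c, described above, was lower. The highest was Hist1h1d, which encodes H1.3, at 0.63 on array 1 and 0.71 on array 2 and a mean of 0.67 ± 0.05. Hist1h1e, which encodes H1.4, had a mean of 0.52 and the testis-type Hist1h1t one of 0.32. By brightest probes, the H1 genes of the cluster thus had ratios of opposite sign, and the difference between Hist1h1d and Hist1h1c exceeded the spread between arrays. That spread does not cover differences between probes. A dimmer Hist1h1d probe, described below, went the way of Hist1h1c, at -0.89 on array 1 and -0.59 on array 2. It was not well above background in B16F1-GFP-D on array 1. The median over the probes of Hist1h1d was -0.037, so its direction depends on the probe.

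By brightest probes, the H2A genes were the most uniformly higher family, with 8 of 9 higher and none lower on both arrays, and a median of 0.60. Several of these probes share letters, such as 44 bases between those of Hist1h2aa and Hist1h2af, so the 8 are not all separate readings. Hist3h2a, counted as higher, has another detected probe that was lower, as described below. The highest was Hist1h2ak, at 1.06 on array 1 and 0.82 on array 2, a mean of 0.94 ± 0.17. Hist1h2ai, Hist1h2ao and Hist1h2ab had means of 0.90, 0.86 and 0.76. The Hist1h2ak, Hist1h2ao and Hist1h2ab probes each list a single RefSeq gene. The Hist1h2ak probe still shares 40 bases with a Hist1h2af probe that lists 4 RefSeq genes. The Hist1h2ai probe lists 4 and is placed by the array on the strand opposite to the RefSeq gene. At the other end stood Hist2h2aa1 of chromosome 3, at 0.09 on array 1 and -0.03 on array 2, with signs that differed. The family's median stayed above 0 on both arrays and under each of the alternative ways of processing.

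Of the 6 detected H2B genes, 5 were higher on both arrays, with a family median of 0.47. The highest was the testis-type Hist1h2ba, at 0.45 on array 1 and 0.64 on array 2, a mean of 0.55 ± 0.13. The probes of Hist1h2bk, Hist1h2bm and Hist3h2bb-ps shown above had means of 0.46, 0.48 and 0.49, and since they share 26 or more bases these are not 3 separate readings. Hist1h2bc had a mean of 0.11, and the lowest was Hist2h2be.

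Of the 3 detected H3 genes, Hist1h3a was the highest, at 0.57 on array 1 and 0.50 on array 2, through the probe that spans the whole stem-loop and was well above background in B16F1-GFP-M on array 1 only. So close to background its ratio is uncertain in size. The mean, 0.54, was 1.17 with a normexp offset of 0 and 1.86 with the scanner software's ratio or the series value table, and under each of these Hist1h3a was called higher. Hist1h3d was at -0.11 on array 1 and -0.15 on array 2, a mean of -0.13. Hist2h3c1, the lowest, was at -0.08 on array 1 and -0.26 on array 2, a mean of -0.17 ± 0.12. The sign of the H3 median, -0.13, turned to 0.20 with median centring in place of loess.

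The 6 detected H4 genes had a median of 0.06, with 2 higher on both arrays and 4 of mixed sign. The highest was Hist1h4i, at 0.52 on array 1 and 0.26 on array 2, a mean of 0.39 ± 0.18, through a probe that lists no RefSeq gene. The lowest was Hist1h4f, at -0.27 on array 1 and 0.30 on array 2, a mean of 0.02 ± 0.40, and the Hist1h4d probe that shares 50 bases with it went the same way, at -0.22 and 0.33. Their sign changed with the exchange of dyes. The H4 median was 0.43 with median centring in place of loess, and -0.0069 with a normexp offset of 0, so no direction is given for H4.

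Probes that list several genes gave smaller ratios. The 14 cluster genes whose probe lists 1 RefSeq gene had a median of 0.53, and the 12 whose probe lists 2 or more had one of 0.10. The families are not equally spread over these sets, since H3 and H4 probes mostly list several genes, so family and the number of listed genes cannot be told apart.

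The variant genes, read one by one, covered the range from H2afz to H3f3b. H2afy, which encodes macroH2A1, a variant with a large additional domain, was at 0.53 on array 1 and 0.74 on array 2, a mean of 0.63 ± 0.15. H2afv, which encodes the second H2A.Z protein, was at 0.26 on array 1 and 0.29 on array 2, a mean of 0.27 ± 0.02. H2afx, whose product is phosphorylated at DNA breaks and whose transcripts can be of the replication-dependent type, was at 0.49 on array 1 and 0.04 on array 2, a mean of 0.26 ± 0.32. Of these 3 genes, H2afx alone varied between the arrays by more than its mean.

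The linker variant H1f0, which encodes H1.0 and is known to accumulate in cells that have stopped dividing, was at 0.05 on array 1 and 0.14 on array 2, a mean of 0.10 ± 0.06. Its other 2 detected probes had means of 0.06 and 0.10, and they overlap in position and are not separate readings. The means of the 3 probes were thus at most 0.10, single arrays reached 0.14, and 1 of the other probes was well above background in B16F1-GFP-D on array 2 only. The mean of the brightest probe was 0.26 with median centring in place of loess. H1fx was at 0.21 on array 1 and -0.32 on array 2, a mean of -0.06 ± 0.38, through a probe without a position in the array files. That probe lists no RefSeq gene, and the dimmer H1fx probe that lists one was not detected. H2afj was at -0.13 on array 1 and -0.0016 on array 2, a mean of -0.07 ± 0.09.

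Both H3f3a and H3f3b encode the same H3.3 protein, and they went different ways. H3f3a was at 0.12 on array 1 and 0.60 on array 2, a mean of 0.36 ± 0.34, and its 2 other probes had means of 0.27 and 0.27. H3f3b gave a log2 intensity of 14.56 in B16F1-GFP-D and 15.51 in B16F1-GFP-M on array 1, and of 14.73 and 15.90 on array 2. Its log2 ratio was -0.95 on array 1 and -1.17 on array 2, a mean of -1.06 ± 0.15, which missed the call on array 1. Its 2 other detected probes were also lower in B16F1-GFP-D, with means of -0.41 and -0.44. All 3 probes of H3f3a were higher and all 3 of H3f3b were lower on both arrays. The 2 dimmer H3f3a probes share a long run of letters, and 1 of them also lists another gene. The 3 H3f3a probes are therefore not all separate readings.

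**Figure D3:**
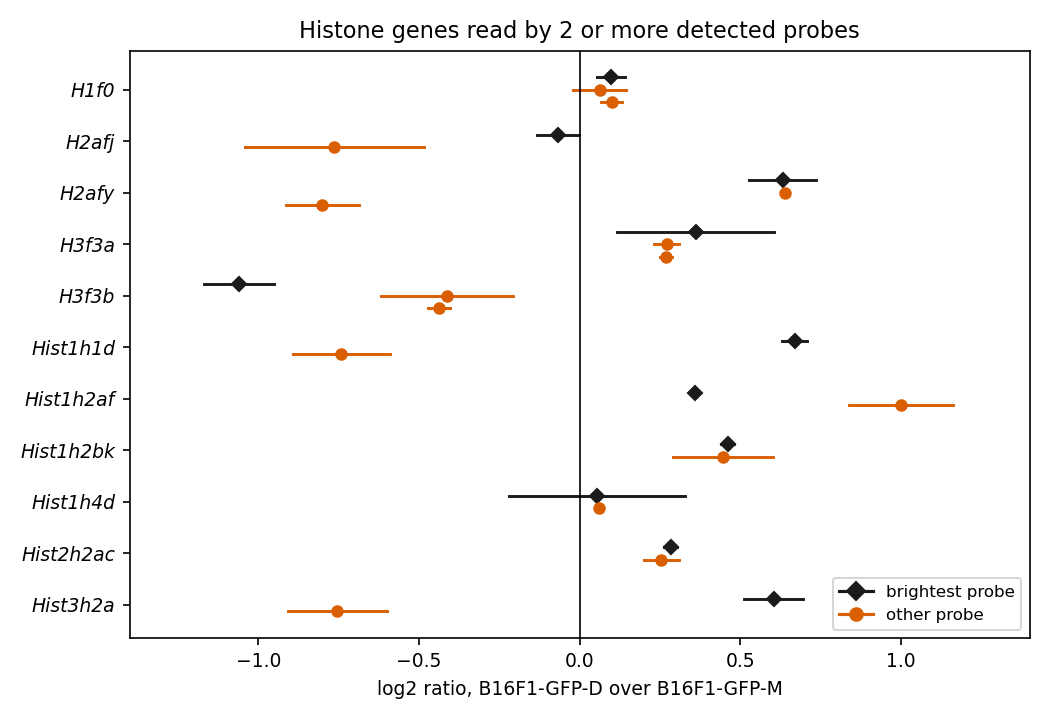
The log2 ratio of B16F1-GFP-D relative to B16F1-GFP-M (horizontal axis) is shown for each detected probe of the 11 histone genes read by 2 or more of them. Diamonds are the brightest probe, circles the others, each at the mean of 2 arrays, and lines join the values of both arrays. For H2afy, Hist1h1d and Hist3h2a a probe lies on the other side of 0 from the brightest one.

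Of the 11 histone genes with 2 or more detected probes, 3 had a probe of opposite sign. For Hist1h1d the brightest probe had a mean of 0.67, and a probe 1691 bases further on was at -0.89 on array 1 and -0.59 on array 2 and was well above background in B16F1-GFP-D on array 2 only. For Hist3h2a, a cluster H2A gene of chromosome 11, the brightest probe was at 0.70 on array 1 and 0.51 on array 2. A probe 507 bases further on was at -0.60 on array 1 and -0.91 on array 2. For Hist3h2a both probes were above background in both lines, and their ratios had opposite signs on each array. Whether the probes of a gene read the same transcript is not known from the files.

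The brightest probes of these genes are shown here, since the value given for each gene rests on them.
Hist1h1d brightest probe, chr13:23647452-23647511 (mm9, plus strand): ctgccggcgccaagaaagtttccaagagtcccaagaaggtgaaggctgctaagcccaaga
Hist3h2a brightest probe, chr11:58768387-58768446 (mm9, plus strand): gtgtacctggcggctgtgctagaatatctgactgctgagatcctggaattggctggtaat

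For H2afy the brightest probe and a probe 21165 bases away were both higher in B16F1-GFP-D, with means of 0.63 and 0.64. A probe between them was lower, at -0.91 on array 1 and -0.69 on array 2, and was well above background in B16F1-GFP-D on array 2 only. H2afy is known to be spliced into alternative forms, and the probes that differed are given here.
H2afy probe higher in B16F1-GFP-D, chr13:56205753-56205812 (mm9, minus strand): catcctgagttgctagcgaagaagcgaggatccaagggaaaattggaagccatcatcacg
H2afy probe lower in B16F1-GFP-D, chr13:56189613-56189672 (mm9, minus strand): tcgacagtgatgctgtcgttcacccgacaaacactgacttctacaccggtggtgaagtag

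Other pairs differed in size and not in sign. Hist1h2af had a mean of 0.36 by its brightest probe and of 1.00 by another, at 1.16 on array 1 and 0.84 on array 2, which shares 40 bases with the Hist1h2ak probe. H2afj had a mean of -0.07 by its brightest probe and of -0.76 by a probe 1178 bases further on. The probes of Hist1h2bk, Hist1h4d and Hist2h2ac differed by less than 0.10 within each gene. Those of Hist2h2ac overlap in position and are not separate readings.

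The detected probes were also split by the composition of their letters. Of the 34 detected probes of cluster genes, 24 were composed of 50% G and C or more, and their ratios lay between -0.17 and 1.00, with 17 higher and 2 lower in B16F1-GFP-D on both arrays. The other 10 were richer in A and T and ranged from -1.32 to 0.76, with 6 higher and 4 lower on both arrays. These 4 were the probes of Hist1h1c and Hist2h2be and the distant probes of Hist1h1d and Hist3h2a. The medians of these 2 sets of cluster probes were 0.32 and 0.22. Of the 18 detected probes of variant genes, 7 were composed of 50% G and C or more. They ranged from -0.80 to 0.64, with 4 higher and 2 lower on both arrays. The other 11 ranged from -1.06 to 1.17, with 6 higher and 4 lower, and both variant sets had medians of 0.10. The lower H2afy probe was the one richest in G and C of that gene's 3, at 51.7%. Over all detected probes the same split gave medians of 0.024 and -0.0095 in turn. This split was chosen after the values had been seen, and its part in the ratios was not tested.

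By position, most of the higher cluster genes lay on chromosome 13. The 20 detected genes on chromosome 13 had a median of 0.42, with 16 higher and 2 lower in B16F1-GFP-D on both arrays. The other 420 detected genes of chromosome 13 had a median of -0.18. The 5 genes on chromosome 3 had a median of 0.02 beside -0.16 for the other 579 genes there, and the 2 genes on chromosome 11 one of 0.55 beside 0.02 for 1030 genes. Hist4h4, the only detected cluster gene on chromosome 6, was at -0.0018 on array 1 and 0.29 on array 2. The variant gene H2afj lies near it.

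**Figure D4:**
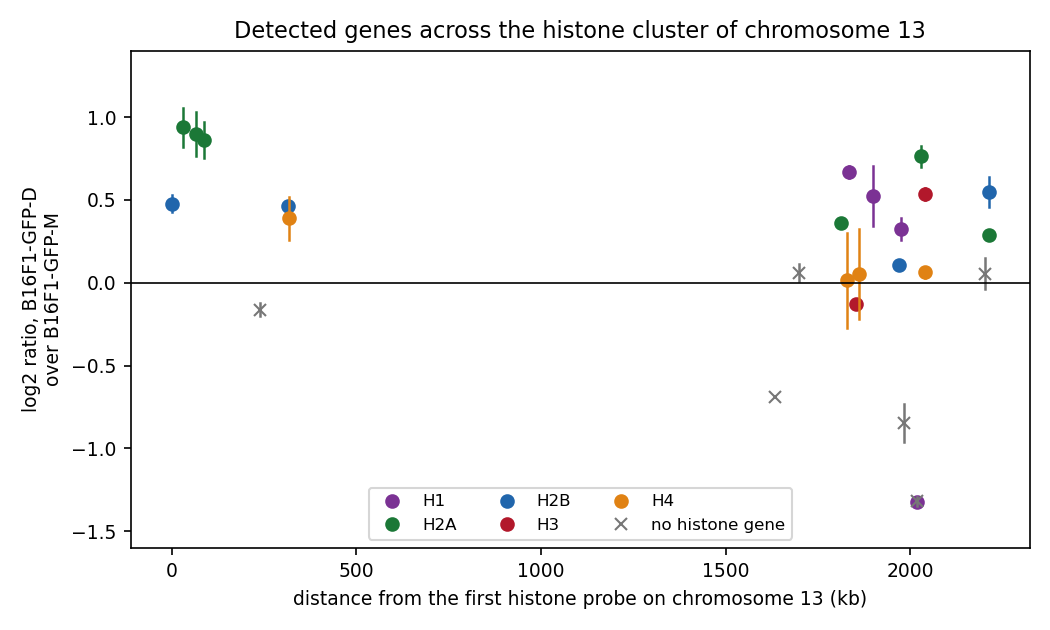
The log2 ratio of B16F1-GFP-D relative to B16F1-GFP-M (vertical axis) of the 20 detected histone genes of chromosome 13 (circles, coloured by family) and the 6 other detected genes among them (crosses) is plotted by distance in kb from the first histone probe. Points are means of 2 arrays and lines join both arrays. Histone genes mostly lie above 0 and the other genes at or below about 0, with Hist1h1c and BC013561 at the same place at the bottom.

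Genes of other kinds between the chromosome 13 histone genes did not share the higher ratios. The 6 detected ones had a median of -0.42, or -0.16 over the 5 left without BC013561. Among them Hfe, which limits iron uptake, had a mean of -0.85, Zfp322a one of -0.69 and Abt1 one of 0.06. The probes of the 3 H2A genes with the highest ratios, Hist1h2ak, Hist1h2ai and Hist1h2ao, were placed within 88.5 kb of the first histone probe. That of Hist1h2ai lists 4 RefSeq genes and lies on the strand opposite to its RefSeq gene, so its position may not be the gene's. It also shares 26 bases with the Hist1h2ak probe, so these are not 3 separate readings.

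The promoters of the cluster genes carried the letters known from their kind far more often than promoters at large. RefSeq promoters (GRCm38.p6, from 250 bases before to 50 after the start) were matched for 29 cluster genes, with 30 promoters, and 12 variant genes. CCAAT, searched on both strands like the other motifs, was found in 93.3% of the cluster promoters, 58.3% of the variant promoters and 37.4% of all 32851 promoters. TATAAA was found in 60%, 8.33% and 13.6%. The octamer ATTTGCAT, known from H2B promoters, was found in 33.3%, 8.33% and 1.74%, and AAACACA, known from H1 promoters, in 30%, 8.33% and 7.18%.

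The families differed in AAACACA more than in the other motifs. AAACACA was in 83.3% of the 6 cluster H1 promoters, 18.2% of the 11 H2A, 28.6% of the 7 H2B and none of the H3 and H4 promoters. The octamer was about as common in the H2A promoters, at 54.5%, as in those of H2B, at 57.1%. CCAAT was in every cluster H1, H2A, H2B and H3 promoter, and TATAAA in 42.9% to 75.0% of the promoters of each family. Neighbouring H2A and H2B genes can share such letters, because they are often transcribed away from each other from a common stretch. A match is a description of the letters and not of bound factors.

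The promoters of the genes that differed most are printed up to 30 bases after the start, with every match in capitals. That of Hist1h1c holds 1 AAACACA and 1 CCAAT, and so carries the letters of its family although its ratio was opposite. That of H2afz holds 3 CCAAT and no TATAAA. That of H3f3b holds 4 CCAAT, 1 TATAAA and 1 octamer, the last on the other strand, and was the variant promoter with TATAAA.
Hist1h1c promoter, chr13:23738557-23738836 (GRCm38.p6, plus strand): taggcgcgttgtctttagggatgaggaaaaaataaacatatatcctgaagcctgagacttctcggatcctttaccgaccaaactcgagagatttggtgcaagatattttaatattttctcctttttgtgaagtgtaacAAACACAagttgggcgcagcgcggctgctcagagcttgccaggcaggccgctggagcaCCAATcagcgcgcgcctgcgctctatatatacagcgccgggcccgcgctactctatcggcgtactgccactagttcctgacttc
H2afz promoter, chr3:137864237-137864516 (GRCm38.p6, plus strand): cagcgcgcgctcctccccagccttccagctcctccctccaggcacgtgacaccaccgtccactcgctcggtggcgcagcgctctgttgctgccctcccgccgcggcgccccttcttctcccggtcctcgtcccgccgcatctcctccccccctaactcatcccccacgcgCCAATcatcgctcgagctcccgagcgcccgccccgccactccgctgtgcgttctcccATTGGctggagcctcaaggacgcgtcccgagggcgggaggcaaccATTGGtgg
H3f3b promoter, chr11:116024475-116024754 (GRCm38.p6, minus strand): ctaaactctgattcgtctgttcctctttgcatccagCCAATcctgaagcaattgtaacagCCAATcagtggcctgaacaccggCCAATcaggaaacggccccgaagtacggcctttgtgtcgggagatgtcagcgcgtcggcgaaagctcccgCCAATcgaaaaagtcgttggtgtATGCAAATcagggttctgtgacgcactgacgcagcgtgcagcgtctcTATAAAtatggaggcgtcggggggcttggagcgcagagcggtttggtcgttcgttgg

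Genes that make, carry and deposit histones were described next, from a list of 48 genes in 5 groups, of which 47 were detected. Their median was 0.32, and 9 were called higher (19.1%, against 3.11% of all detected genes) and 0 lower. On both arrays 33 were higher in B16F1-GFP-D (70.2%, against 41.0% of all detected genes) and 10 lower (21.3%, against 42.7%). None was called with median centring in place of loess. The differences were uneven between the groups.

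Of the 12 chaperones of new H3 and H4, 10 were higher and 2 lower on both arrays, 6 were called higher, and the median was 1.10. Chaf1b, a subunit of the complex that deposits H3 and H4 behind the replication fork, was the highest, at 1.65 on array 1 and 1.49 on array 2. Its partner Chaf1a was at 1.22 and 1.33 on arrays 1 and 2, and Asf1b, which hands H3 and H4 to that complex, at 1.54 and 1.48. Tonsl, which reads new H4 on replicated DNA, was at 1.40 and 1.67. Hat1, which acetylates new H4, was at 1.34 and 1.56, and Nasp, which holds the soluble pool of H3 and H4, at 1.48 and 1.35. The lowest was Asf1a, the paralogue of Asf1b, at -1.06 and -0.84. Ipo4 was also lower on both arrays, with a mean of -0.41, and Rbbp4 had a mean of 0.29, so the group did not move as one.

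Centromeric H3 showed the same direction. Cenpa, the H3 variant of centromeres, which the name rule does not take in, was called higher at 1.38 on array 1 and 1.30 on array 2. Mis18a, which licenses its loading, was called at 1.04 on array 1 and 1.13 on array 2. All 5 genes of the group were higher on both arrays, against 41.0% of all detected genes, the lowest being Oip5 at 0.64 and 1.01. The 2 called stand beside 3.11% of all detected genes called higher.

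The 7 chaperones of H3.3 had a median of -0.18, with 2 higher and 4 lower on both arrays and none called. Dek was the highest at 0.46 on array 1 and 0.35 on array 2, and Daxx, which deposits H3.3 in heterochromatin, the lowest at -0.81 and -0.51. The 10 chaperones and exchangers of H2A and H2B or H2A.Z had a median of 0.16 and none was called. Nap1l1, a carrier of H2A and H2B, was the highest at 0.86 on array 1 and 0.97 on array 2, and Ino80, a remodeller that acts on H2A.Z, the lowest at -0.91 and -0.61. No gene of these groups reached 2-fold on both arrays, against 5.06% of all detected genes in either direction. Groups of 7 and 10 genes are too small to read anything from that count.

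Of the 13 detected genes of transcription and 3' end processing of histone transcripts, 10 were higher and 2 lower on both arrays, with a median of 0.31. These are 76.9% and 15.4%, against 41.0% and 42.7% of all detected genes. Srrt, a partner of the cap-binding complex, was called at 1.24 on array 1 and 1.18 on array 2. It was the 1 gene called (7.69%, against 3.11% of all detected genes called higher). Slbp, which binds the stem-loop, was at 0.69 on array 1 and 0.86 on array 2, and Npat, the activator of cluster histone transcription, at 0.20 and 0.29. The lowest was Lsm10, a subunit of the U7 particle that cuts histone transcripts, at -0.48 and -0.22. Of the activator, the stem-loop binder and the cutting machinery, none was called. They are too few to read anything from that, beside 5.06% of all detected genes called in either direction.

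**Figure D5:**
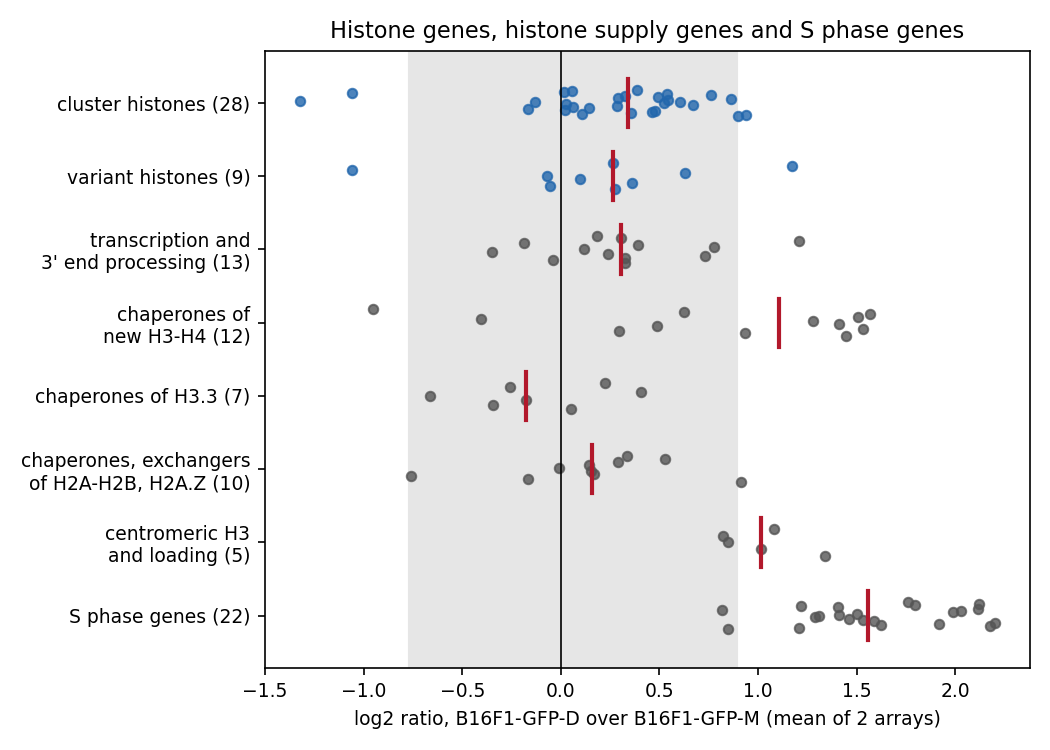
Each point is the log2 ratio of B16F1-GFP-D relative to B16F1-GFP-M, mean of 2 arrays, of a detected gene, with red bars at group medians and the number of genes in brackets. Grey spans the central values of all detected genes, from the 5th percentile at -0.77 to the 95th at 0.90. The histone genes lie mostly inside the grey span, and the S phase genes and many H3 and H4 chaperones to its right.

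Genes of S phase were much further apart between the lines than the histone genes. On both arrays all 22 of the list were higher in B16F1-GFP-D, against 41.0% of all detected genes, with a median of 1.56. By the rule of size 20 were called higher, against 3.11% of all detected genes. The list was chosen with earlier results of these data known. Rrm2, a subunit of the enzyme that makes deoxyribonucleotides, was the highest at 2.14 on array 1 and 2.26 on array 2, and cyclin gene Ccne2 the lowest at 0.79 and 0.84. Besides Rrm2, the called genes were Pcna, Mcm2, Mcm3, Mcm4, Mcm5, Mcm6, Mcm7, Rrm1, Tyms, Cdc6, Cdt1, Gins1, Gins2, Prim1, Pola1, Fen1, Lig1, Ccne1 and E2f1, with means from 1.21 for Cdt1 to 2.17 for Mcm3. Of the 28 detected cluster histone genes, 0 were called higher. Beside 3.11% of all detected genes, 28 genes are too few to read anything from that count. The highest, Hist1h2ak at 0.94, lay below 20 of the S phase genes. How the labelling of transcripts without a poly(A) tail affects this comparison was not tested. In bulk RNA, more cells of a cell cycle phase and more RNA per cell cannot be told apart.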

How the data were processed

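The 2 Agilent 2-colour arrays, on 1 slide, each held RNA of B16F1-GFP-D beside that of B16F1-GFP-M, with the dyes exchanged. The deposited intensity of a spot and that of the background around it were read by the authors with Agilent Feature Extraction 10.7.3.1 and carries no normalization. The deposited log10 ratio of Cy5 over Cy3, made by the same software after background subtraction and dye scaling, and the deposited series value table with the same log10 values, served as alternatives. The flags, 0 or 1 per spot, gave the outlier spots and those well above background. The labelling primer is not given in the sources used here. Transcripts without a poly(A) tail are labelled poorly where such a primer is oligo-dT, and this would touch the cluster histones.

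Of 43379 spots that are not controls on each array, 143 and 176 outliers were left out. With limma 3.58.1 in R 4.3.3, the signal was corrected by normexp with an offset of 50 and by loess within each array, turned into log2 of B16F1-GFP-D relative to B16F1-GFP-M, and averaged over the spots of a probe. Each array gene name was represented by its brightest probe. Detection and the 2-fold call are rules of size and not tests, since each line has 1 replicate. The SD is that between 2 arrays and holds dye effects but no variation between cultures. Precision is limited by the number of arrays. Probe positions are on mm9. RefSeq names and promoters come from GRCm38.p6. Python 3.11.15 was used with pandas 2.3.3, numpy 2.4.6 and, for figures, matplotlib 3.10.9. The calling was run on simulated arrays with changes larger than those of the called histone genes, planted in brighter probes only. It therefore says nothing of calls near 2-fold.

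Values on both arrays are given for called histone genes, all detected variants and the highest and lowest cluster gene of each family, and for the called supply genes and the highest and lowest of each list's group. Other called S phase genes are named with their range. The name rule for the histone genes uses no measured value, but it, the lists and the motifs were chosen with earlier results of these data known. The alternatives were other background corrections and normalizations, the authors' ratios, other filters on dim probes, a gene's median over its probes, the arrays 1 at a time and other folds.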

Additional observations from a re-analysis of the deposited data

How the results depend on the processing

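The number of called histone genes, 3 here, was 5 with a normexp offset of 0, 5 on array 1 alone, 9 at 1.5-fold, 0 at 3-fold and 0 with median centring in place of loess, and 2 to 4 under the other alternatives. With median centring 64 genes of all kinds were called in place of 629, and the 12424 detected genes had medians of -0.86 and 1.03 on the 2 arrays. Hist1h1c and Hist2h2be were called lower under all alternatives but median centring and 3-fold, and H2afz was called higher under all but these and a gene's median over its probes. The called supply genes, 9 here, were 5 with a gene's median over its probes, 19 at 1.5-fold, and 0 at 3-fold or with median centring. The called S phase genes, 20 here, were 9 at 3-fold and 5 with median centring.

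The median of the cluster genes, 0.34 here, was 0.65 with median centring, 0.37 with the scanner software's ratio or the series value table, and 0.34 with a normexp offset of 0 or no background subtraction. It was 0.32 for genes that both lines held above background, 0.28 for the median over each gene's probes, 0.26 on array 1 alone, 0.30 on array 2 alone and 0.14 without a filter on dim probes, which adds genes near background. That of the variant genes, 0.26 here, was 0.41 with median centring, 0.11 without the filter, 0.12 on array 1 alone and 0.0385 on array 2 alone. Both medians stayed above 0. On 1 array alone, detection was judged on that array only, which let in more genes. The cluster median then held 34 genes on array 1 and 31 on array 2 in place of 28. The variant median held 13 on each in place of 9. These values therefore differ from the single-array medians of the same detected genes given above. Bright genes, at a log2 intensity of 14 or more, had a median of -0.03 here and 0.36 with median centring. Of the 19 histone genes named by rule, 13 kept their sign under all alternatives, and H1fx, H2afj, Hist1h1d, Hist1h4f, Hist2h2aa1 and Hist2h3c1 did not. The cause of these changes was not tested. No paired analysis was possible because no result comes from a test and there is only 1 replicate per line.

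No ratio was read for the 14 histone genes that were not detected, and ratios of probes above background in a line on 1 array only, such as Hist1h3a, are uncertain in size. Each such detected probe fell short in the Cy3 channel. There 44.1% and 45.0% of spots were well above background on arrays 1 and 2, and in the Cy5 channel 60.7% and 56.1%. The part of the dye was not tested. Values rest on 1 replicate per line, and probes that share letters are not separate readings.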
